A study of Capsella grandiflora and Capsella rubella with 18 samples.

Results

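Flower buds and leaves of Capsella grandiflora, an outcrossing relative of Arabidopsis, were compared gene by gene. The members of the comparison were 14 of the 18 libraries of the series: 4 of mixed-stage floral buds and 10 of maturing leaves, all from plants kept in a greenhouse. Of the bud libraries, 3 came from plants raised from seed collected in the wild at Monodendri, Pili and Metsovo in Greece, and 1 from an F1 cross of Corfu plants. Of the leaf libraries, 9 came from plants raised from wild seed of 7 places, 3 of them from Mikro Papingo, and 1 from an F1 cross of Corfu plants. The labels place no bud library and leaf library on 1 plant, so tissue was compared between plants. The other 4 libraries of the series are buds of the self-compatible sister species C. rubella and were not part of this comparison. Polyadenylated RNA was measured for 19350 gene rows as FPKM, that is, fragments relative to transcript length and sequencing yield. Of these rows, 17229 held at least 1 FPKM in at least 4 of the 14 libraries and were tested.

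A flower bud holds sepals, petals, stamens with developing pollen, and carpels, and so mixes many cell types, dividing cells and the anther tissues that build the pollen coat. A maturing leaf is mostly photosynthetic mesophyll, whose messenger RNA is known in many plants to be dominated by a small number of very abundant transcripts of photosynthesis. In RNA from whole tissue, fewer cells of a type and less RNA per cell cannot be told apart. The table does not pair its row IDs with gene names, so no known marker of leaf or flower could be looked up, and the labelled tissues were not checked against markers. Rows are therefore described by level, rank and position, and no function is given for any of them.

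Tissue separated the libraries. Across the tested rows, Spearman's rho between pairs of bud libraries ranged from 0.944 to 0.971 and between pairs of leaf libraries from 0.865 to 0.962. Between a bud and a leaf library it ranged from 0.443 to 0.564. These values run across genes and are given as a description. Cg_leaf 4, from Koutselio, stood apart from the other leaves, with a median rho of 0.904 with its own tissue against 0.928 or more for the others. Cg_bud 1, from Monodendri, was listed at 0 in only 6 rows and held exactly 0.5 in 1023 rows, whereas the other buds were listed at 0 in 1039 to 1250 rows. Bud columns carry 2 decimals and leaf columns more digits, and the scale of the columns also followed tissue. Tissue and any difference in processing therefore cannot be told apart, so the calls over all rows are given both by level and by rank.

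Leaf expression was concentrated in few genes and bud expression was spread over many. The 10 most abundant rows held 6.48%, 4.98%, 4.07% and 3.97% of the FPKM sum in Cg_bud 1 to 4. In the leaf libraries the same share ran from 12.5% through a median of 19.98% to 27.6%. Every leaf library lay above every bud library, and the means differed by 14.7 percentage points (exact permutation p = 0.0020, two-sided, the smallest that 4 against 10 libraries allow; adjusted p = 0.0022 over 9 measures per library). The 100 most abundant rows held 19.7% ± 1.99 in buds (SD, n = 4) and 49.4% ± 7.80 in leaves (SD, n = 10), with the same exact permutation p of 0.0020. Cg_leaf 4 was the most even leaf library, with 34.4% in its top 100 rows, still above the highest bud library at 22.4%. All these shares count each row on its own, also rows that repeat each other's leaf values. In Cg_leaf 9, 2 such rows tied as the most abundant at 79207 FPKM each. Shares without the repeats were not computed.

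The most abundant rows also carried most of the difference in scale between the columns. The whole column summed to between 589667 and 657140 FPKM in buds and to between 1307609 and 1858148 in leaves. Below the top 1000 rows of each library, the remaining rows summed to 296988 ± 8602 FPKM in buds (SD, n = 4) and 376905 ± 34713 in leaves (SD, n = 10). The leaf distribution was wider at both ends. The lowest 25% of rows stood at or below 2.89 to 3.73 FPKM in the bud libraries and at or below 0.606 to 1.16 FPKM in the leaf libraries. At the other end, the level passed by 1 row in 100 was 421 ± 30.6 FPKM in buds and 856 ± 87.8 in leaves. Medians were closer, 10.6 ± 0.227 FPKM in buds and 9.46 ± 1.25 in leaves, and did not pass the test (exact permutation p = 0.0799, two-sided). Rows above 10000 FPKM numbered 7 to 27 in the leaf libraries and 0 in every bud library.

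**Figure D1:**
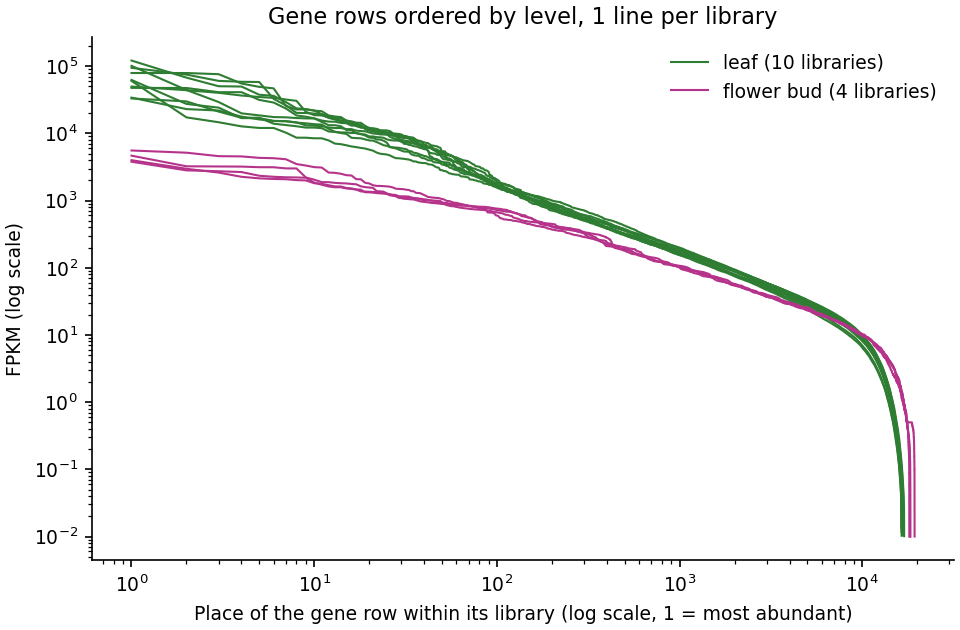
FPKM of every gene row (vertical, log scale) against its place in its own library (horizontal, log scale, 1 = most abundant), 1 line for each of 4 bud and 10 leaf libraries; values under 0.01 are not drawn. The leaf lines start at 33127 FPKM or above and the bud lines between 3787 and 5568 FPKM, the lines cross near the middle of the ranking, and the leaf lines fall away earlier at the low end.

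The rows that dominated each tissue were largely different rows. Of each library's 100 most abundant rows, 77 to 88 were shared between pairs of bud libraries, 64 to 87 between pairs of leaf libraries and 9 to 18 between a bud and a leaf library. In all, 67 rows were in the top 100 of every bud library, 50 in the top 100 of every leaf library and 6 in both sets. The 50 leaf rows took 25.6% to 42.5% of the FPKM sum of the leaf libraries and 2.52% to 2.88% of that of the bud libraries. They were not silent in buds: 37 of the 50 were in the top 10% of rows in every bud library, and none was at or below 1 FPKM in all 4. The 67 bud rows were more divided. In leaf, 31 of them were in the top 10% of rows of every library, while 19 were at or below 1 FPKM in every library, 7 of them at 0 throughout.

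Most genes differed between the tissues whichever scale was used. On the log2(FPKM + 1) scale 12000 of 17229 rows (69.7%) passed an adjusted p below 0.05 (limma with Benjamini-Hochberg adjustment). Of these, 6451 had the higher level in buds (37.4%) and 5549 in leaves (32.2%). On within-library ranks, which no rescaling that keeps the order of the rows can change, 12882 rows (74.8%) passed, 6457 with the higher rank in buds (37.5%) and 6425 in leaves (37.3%; limma on normal scores of the ranks). Ranks within a library have a fixed sum, so an even split is in part built into them. The same direction was called on both scales in 10355 rows (60.1%), with buds above leaves in 5351 (31.1%) and below in 5004 (29%). Neither scale called 2804 rows. Opposite calls were made in 102 rows, of which 95 were higher in buds by level and lower by rank. Those 95 were low rows, with a median of 2.11 FPKM in buds and 0.897 in leaves, and moved by at most 8.52 percentile points.

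The size of the change was large for many rows. The 5351 rows called higher in buds on both scales had a median level of 19.3 FPKM in buds and 3.65 in leaves, and a median rise of 21.3 percentile points. The 5004 rows called lower had a median level of 9.95 FPKM in buds and 38.1 in leaves, and a median change of -24.996 percentile points. Over all tested rows the median difference was 0.13 on the log2 scale and -0.09 percentile points. At least 4-fold differences on the log2(FPKM + 1) scale, called on both scales, took in 2405 rows with buds above leaves (14%) and 2080 with buds below (12.1%). The levels of the 2 tissues did not overlap in 8737 rows (50.7%). Every bud library lay above every leaf library in 4483 (26%) and below in 4254 (24.7%). Tested rows at or below 0.5 FPKM in every leaf library numbered 1116, of which 1075 were among the 5351 called higher. They entered only with all 4 bud libraries at 1 FPKM or more, so their lack of overlap was fixed by the filter. The counts of 4483 and 4254 therefore do not compare like with like.

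**Figure D2:**
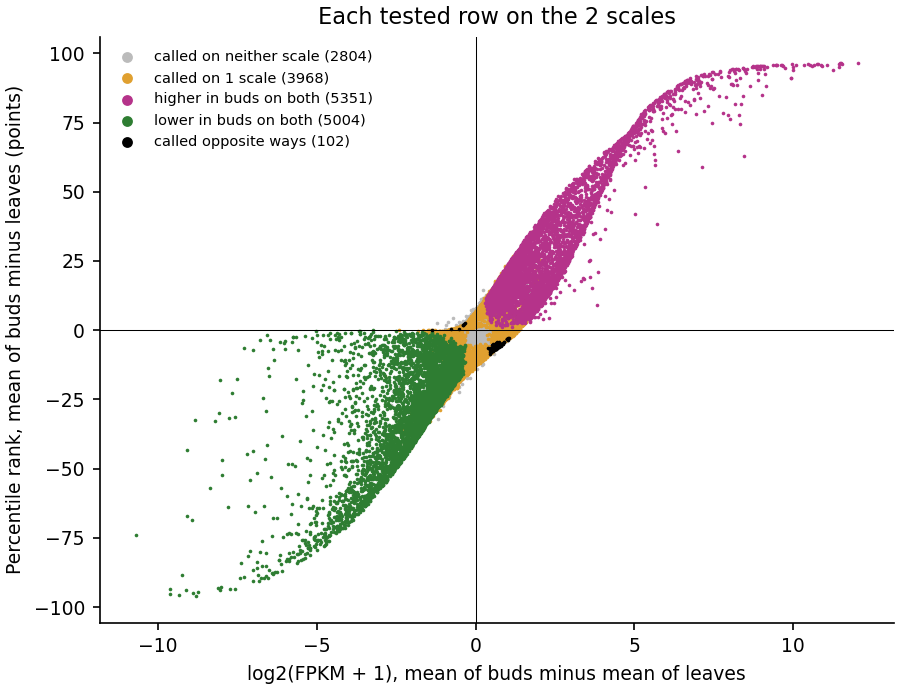
Difference in mean log2(FPKM + 1) (horizontal) and in mean percentile rank (vertical, points), buds minus leaves, for each of the 17229 tested rows, coloured by the calls on the 2 scales. The 10355 rows called the same way on both scales fill the upper right and lower left, and the 102 rows called opposite ways lie close to the origin.

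The balance of directions by level changed with abundance from mostly higher to mostly lower in buds. Tested rows were divided into 10 equal groups by their mean log2 level over both tissues. In the lowest group (0.289 to 1.77 FPKM), 59.6% of rows were called higher and 12.01% lower in buds on the log2 scale. In the highest group (62.9 FPKM and above), 21.2% were called higher and 54.7% lower. On ranks the same groups gave 34.8% higher and 35.7% lower, then 39.2% higher and 41.1% lower. The balance by rank also varied between groups, and the second lowest gave 43.1% higher and 30.9% lower. Rows at or below 0.5 FPKM in every leaf library entered only if every bud library reached 1 FPKM. The filter thus fixed the direction of these 1116 rows, of which 1075 were called higher in buds on both scales. Their part in the low groups was not counted, so the excess there does not compare like with like. Of all log2 calls, 57.9% were higher in buds without a filter and 47.2% with one of 5 FPKM. Other scalings of the columns moved the split of the log2 calls. As deposited, 53.8% of the calls were higher in buds, against 68.8% after upper quartile scaling (median of all rows shifted from 0.13 to 0.61 on the log2 scale) and 82.5% after scaling each library to a common sum (shifted to 1.26). Quantile normalization gave 50.1%, with the median shifted to -0.02.

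**Figure D3:**
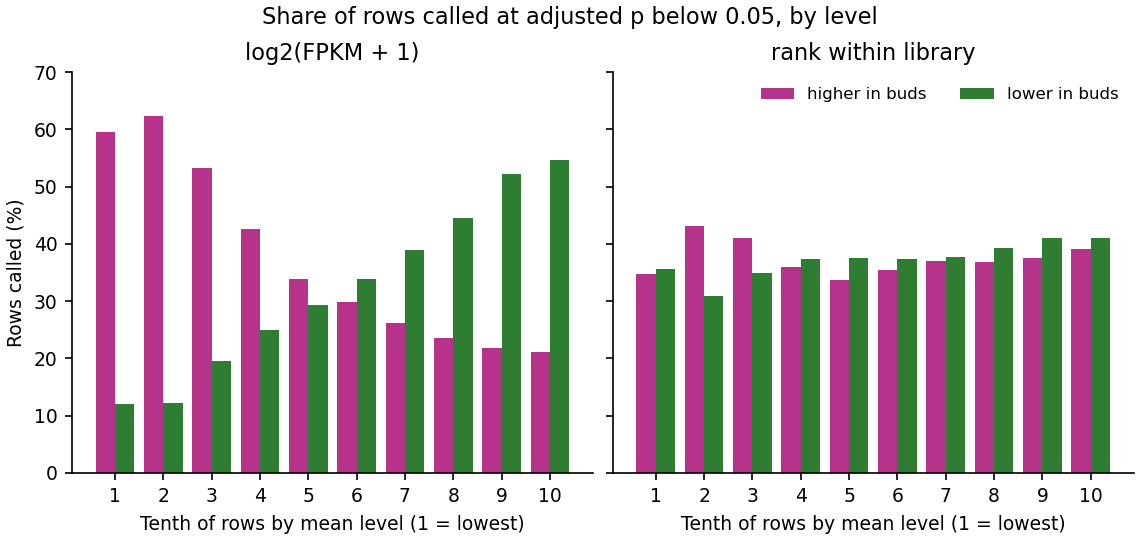
Percentage of tested rows called at an adjusted p below 0.05 (vertical) in each of 10 equal groups of rows by mean log2 level (horizontal, 1 = lowest), on the log2(FPKM + 1) scale (left) and on within-library ranks (right); magenta bars are rows higher and green bars rows lower in buds. On the left the magenta bars fall from 59.6% to 21.2% and the green bars rise from 12.01% to 54.7%. On the right all bars lie between 30.9% and 43.1%. The magenta bars on the left include rows whose direction was fixed by the filter.

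Some rows changed places almost completely between the tissues. A total of 299 rows stood over 75 percentile points higher in buds and 98 stood over 75 points lower. In 268 rows every bud library placed the row in its top 25% and every leaf library in its bottom 25%. The reverse, the top 25% of every leaf library and the bottom 25% of every bud library, held for 74 rows. The 268 bud rows had a median level of 100.5 FPKM in buds, 19 of them had a mean of at least 1000 FPKM there, and 99 were at 0 in every leaf library. The 74 leaf rows had a median level of 160 FPKM in leaf and 2.07 FPKM in buds, and 5 of them were at or below 0.5 FPKM in every bud library. These sets were read from the same ranks as the calls and carry no test of their own. Their sizes do not compare like with like, since 189 of the 268 rows were at or below 0.5 FPKM in every leaf library and entered through the 4 buds alone. With 1 bud library left out and the filter kept at 4 libraries, the bud set held 102 to 124 rows and the leaf set 73 to 77. With the filter asked in 3 libraries, they held 271 to 353 and 75 to 83 rows. They took a similar part of each bud library: the 268 rows held 15.1%, 13.97%, 10.9% and 13.1% of the FPKM sum in Cg_bud 1 to 4 and at most 0.00349% in any leaf library. The 74 rows held 1.23% to 2.16% of the sum in leaf libraries and at most 0.0253% in buds.

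The number of rows seen in 1 tissue alone was not alike in the 2 directions. In 537 tested rows every bud library reached 5 FPKM and every leaf library stood at or below 0.5 FPKM. The reverse held for 37 rows. A row at or below 0.5 FPKM in every leaf library enters the test only if all 4 bud libraries reach 1 FPKM. The 1116 such rows, 471 of them at 0 in every leaf library, could not overlap. Their calls are not support for a difference. Leaf columns also list 0 more often, in 2390 to 2972 rows, so the counts of 537 and 37 do not compare like with like.

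Among rows called on both scales, without overlap between tissues and averaging 5 FPKM or more where higher, those with the largest log2 differences are named. Carubv10002873m lies on scaffold 6 from 2381124 to 2382729 of the C. rubella build CR v1 JGI. It measured 4273, 4663, 3991 and 3787 FPKM in Cg_bud 1 to 4 and 0 in each of the 10 leaves. It was the most abundant row of 3 of the 4 bud libraries and held place 6 in Cg_bud 1, so its level varied little between the 4 plants. Its percentile rank was 96.4 points higher in buds. As it entered the test through its bud values alone, no p is given, and no fold is given against leaves listed at 0.

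Carubv10015686m (scaffold 3, 2550840 to 2552495) measured 5163, 3007, 2260 and 2261 FPKM in Cg_bud 1 to 4. It was listed at 0 in 9 leaf libraries and at 0.0289 FPKM in Cg_leaf 5. The tissues did not overlap, and the rank difference was 96.0 percentile points. This row also entered the test through its bud values alone, and no p is given. Unlike the row before it, its highest bud library was 2.28 times its lowest.

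Carubv10021234m (scaffold 2, 12113473 to 12114011) ranged over the 10 leaf libraries from 1726 through a median of 7792 to 121431 FPKM, the highest value in any of the 14 libraries. In Cg_bud 1 to 4 it measured 2.79, 5.22, 5.38 and 10.03 FPKM. Every leaf library lay far above every bud library, but the leaves differed among themselves more than those of the other named rows. Buds minus leaves gave -10.70 in log2 units with an SE of 1.06 (limma, adjusted p = 2.23e-07) and -74.0 in percentile points. Carubv10010549m (scaffold 1, 5211632 to 5213149) ranged from 773 through a median of 1302 to 3007 FPKM in leaf and measured 0.57, 0.64, 0.86 and 0.70 FPKM in Cg_bud 1 to 4. Here the values were -9.63 in log2 units with an SE of 0.32 (limma, adjusted p = 3.47e-13) and -95.3 in percentile points, so it passed from the top of the leaf ranking to the bottom of the bud ranking.

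**Figure D4:**
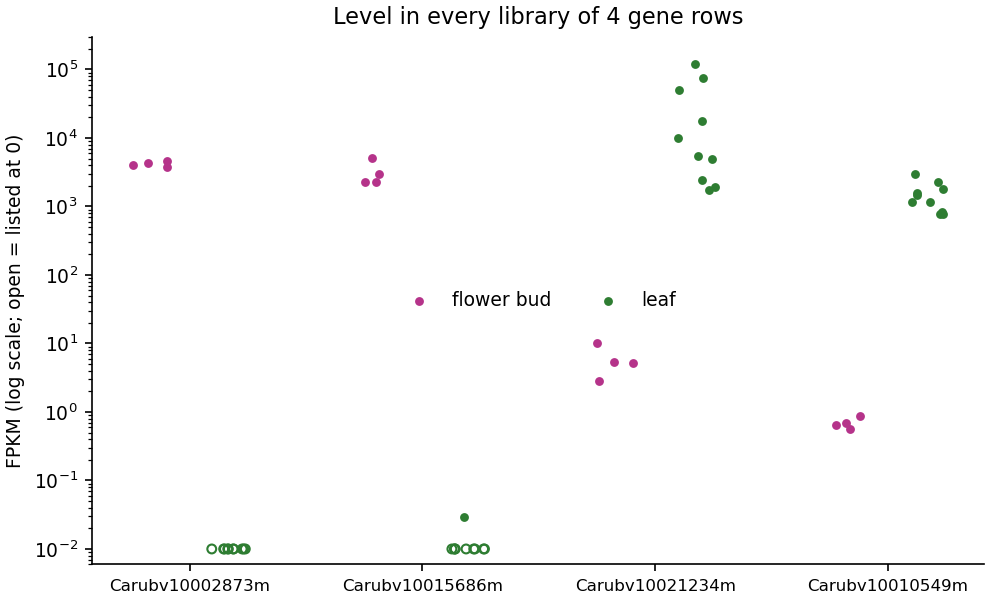
FPKM (vertical, log scale) of 4 gene rows in each of the 4 bud libraries (magenta) and 10 leaf libraries (green); open circles, drawn at 0.01, are libraries listed at 0. For the left pair all buds lie above 2260 FPKM with leaves at or near 0, and for the right pair all leaves lie above 773 FPKM with buds at or below 10.03.

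By change in rank rather than in level, the same rule led to the row on scaffold 6 already given and to 3 others, given by position. The row on scaffold 6 from 2348637 to 2350217 measured 4584, 3207, 2098 and 2343 FPKM in Cg_bud 1 to 4, was at 0 in all leaves and stood 96.3 percentile points higher in buds, and it too entered the test through its bud values alone. The row on scaffold 2 from 1876221 to 1877658 fell by 96.0 percentile points. It ranged from 255 through a median of 599 to 2304 FPKM in leaf and measured 0.30, 0.43, 0.74 and 0 FPKM in the buds. The row on scaffold 1 from 8461287 to 8462144 fell by 95.5 percentile points. It ranged from 156 to 4576 FPKM in leaf and was listed at 0.50, 0, 0.87 and 0.66 FPKM in the buds. As Cg_bud 1 held exactly 0.5 in 1023 rows, its 0.50 here may not be a measured level. Both falls passed the test (limma on ranks, adjusted p = 3.04e-12 and 2.58e-11).

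Strong tissue differences were more frequent beside a locus of the same kind than elsewhere. Rows that overlap were merged to 16045 loci, and a locus was counted as strong where it was called on both scales with at least a 4-fold difference. Loci strongly higher in buds were 14.4% of all, 20.4% of the loci that follow such a locus and 13.4% of those that follow any other. Loci strongly lower were 12.3% of all, 16.6% after such a locus and 11.7% after any other. These shares are a description, and whether similar neighbours share reads was not tested. There were 23 runs of at least 4 neighbouring loci strongly higher in buds and 12 runs strongly lower. The runs described next were chosen after their values were seen, as the 3 with the most loci in each direction.

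The longest run held 21 tested loci within 52.0 kb of scaffold 3 (7960743 to 8012762), all higher in buds. Their bud means ran from 13.3 to 96.7 FPKM, 18 of the 21 were at 0 in every leaf library, and the highest value in any leaf library was 1.04 FPKM. Summed over the run, the level was 846, 643, 592 and 757 FPKM in Cg_bud 1 to 4 and at most 1.04 in a leaf library. One further row inside it was not tested. The second run held 14 loci within 36.1 kb of scaffold 1 (8315916 to 8352027), with bud means of 8.38 to 104 FPKM, of which 8 were listed at 0 in all leaves and none passed 3.57 FPKM in any leaf library. Its sum was 590, 659, 510 and 984 FPKM in Cg_bud 1 to 4 and at most 5.99 in a leaf library. In both runs the groups were separate at every locus. Runs were defined by the calls, and many of their loci entered the test through the bud values alone, so neither the separation nor a p supports them.

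Another run held the most abundant row of the buds. Its 7 loci lay within 23.4 kb of scaffold 6 (2366285 to 2389692), with bud means from 4.96 to 4179 FPKM, and 4 of the 7 were listed at 0 in all leaves. Together they made up 1.52% to 1.77% of the FPKM sum of each bud library. Before the run, with other rows between, 3 more rows from 2345600 to 2353179 were high in buds. They were at or below 0.0653 FPKM in every leaf library. The first pair of these tracked each other closely: the row at 2345600 measured 4546, 3134, 1995 and 2211 FPKM in Cg_bud 1 to 4, between 0.943 and 0.992 times the row at 2348637. The next, at 2351701, measured 212, 249, 12.1 and 192 FPKM, so that Cg_bud 3 stood far below the other buds there. Nearer to the run, the rows at 2360148 and 2362742 averaged 19.3 and 85.0 FPKM in buds and 4.46 and 2.64 in leaf. Rows of the same stretch were not all bud rows. The row from 2355060 to 2357466 measured 60.7 ± 1.997 FPKM in buds (SD, n = 4) and 68.1 in leaf on average, and did not pass the test (limma adjusted p = 0.881). The row from 2364247 to 2366061, next to the run, measured 26.9 ± 2.46 FPKM in buds (SD, n = 4) and 97.8 in leaf on average, and was lower in buds by -1.73 on the log2 scale (limma adjusted p = 4.44e-05).

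**Figure D5:**
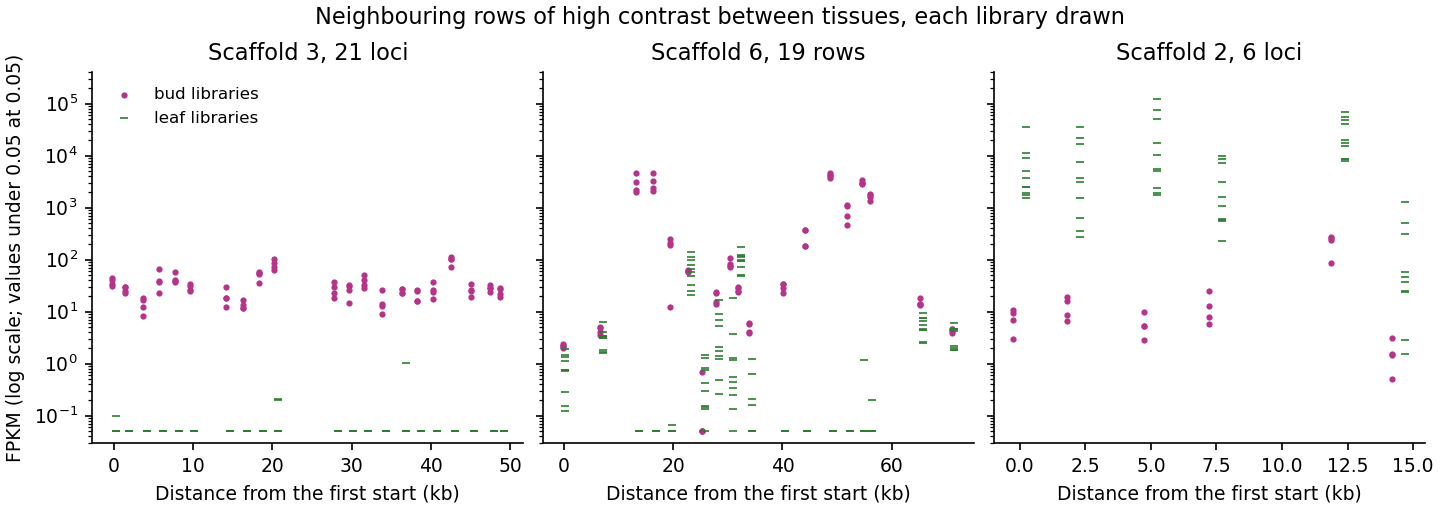
FPKM (vertical, log scale, values under 0.05 drawn at 0.05) against distance from the first start (horizontal, kb) for the 21 loci of the run on scaffold 3, for all 19 rows of the stretch on scaffold 6 and for the 6 loci of the run on scaffold 2; magenta dots are the 4 bud and green dashes the 10 leaf libraries. On scaffold 3 every bud value is above 8 FPKM over leaves at or near 0. On scaffold 6 bud rows of up to 4663 FPKM stand in groups among rows that differ less or are lower in buds. On scaffold 2 leaf values reach 121431 FPKM above buds of at most 268.

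Runs lower in buds held some of the most abundant leaf rows. A stretch of 8 loci within 44.2 kb of scaffold 7 (17152008 to 17196193) had leaf means of 1034 to 15924 FPKM and bud means of 1.71 to 456 FPKM. Their sum ranged in leaf from 30234 through a median of 55836 to 156134 FPKM, or 2.31% to 9.26% of a library, and was 1022, 1127, 1177 and 1741 FPKM in Cg_bud 1 to 4. All 8 were separate between the tissues, with log2 differences from -8.20 to -3.92. The run around Carubv10021234m held 6 loci within 14.8 kb of scaffold 2 (12108502 to 12123298). Its sum ranged in leaf from 12385 through 31021 to 255852 FPKM, up to 13.8% of a library, and was 106, 274, 296 and 330 FPKM in the buds. Leaf plants differed 20.7-fold in this sum, and 5 of the 6 loci were separate between the tissues. The longest run lower in buds held 12 loci within 40.4 kb of scaffold 4 (13263505 to 13303857), 11 of them separate. Its leaf means were 11.3 to 3657 FPKM and its bud means 0.233 to 114 FPKM. These runs too were defined by calls with at least a 4-fold difference, so their separation does not support them. Over all tested rows, every bud library lay below every leaf library in 24.7%.

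Some of the most abundant leaf rows repeated each other's values. On scaffold 26, the rows from 49047 to 49306 and from 82673 to 82932 held the same value in all 10 leaf libraries, from 3529 through 10945 to 79207 FPKM, the last being the top level of Cg_leaf 9. In the buds they differed slightly, at 366 and 363 FPKM in Cg_bud 1 and at 157 FPKM each in Cg_bud 2. The rows following each of them, from 49344 and from 82970, were also equal in every leaf library. Whether these rows share reads was not tested, so the level of each is uncertain. Their part in the leaf shares of the most abundant rows is uncertain too. Only 10 of 16195 rows that reached 1 FPKM in some leaf library repeated another row in all 10.

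Most rows abundant in both tissues were called on at least 1 scale, though many of the differences were small. At least 50 FPKM was reached in every one of the 14 libraries by 903 rows, of which 67 (7.42%) were called on neither scale, against 16.3% of all tested rows. On both scales alike, 156 were called higher and 280 lower in buds, where all tested rows gave 31.1% higher and 29% lower. By level, 17.3% of the 903 were higher and 51.2% lower in buds, against 37.4% and 32.2% of all tested rows. Their median difference was -0.54 on the log2 scale. By rank, 42.2% were higher and 31.0% lower, against 37.5% and 37.3% of all tested rows. The median difference was 0.81 percentile points, so the direction of this set flips between the scales. Within 0.1 of 0 on the log2 scale lay 67 rows, and within 0.5 lay 275 of the 903. The closest lay on scaffold 5 (3560055 to 3565022), at 133 ± 6.77 FPKM in buds (SD, n = 4) and 147 ± 64.4 in leaf (SD, n = 10). By rank it was called higher in buds, by 4.28 percentile points (limma on ranks, adjusted p = 0.0373).

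Plants differed more in leaf than in bud. Over the tested rows, log2(FPKM + 1) had a median SD of 0.195 among the 4 buds and 0.442 among the 10 leaves, and 86.0% of rows had the larger SD in leaf. On percentile ranks the medians were 3.14 and 5.04 points and the share was 71.3%. Rows lower in buds on both scales had the larger log2 SD in leaf in 93.6% of cases and rows higher in buds in 71.6%. With 0.1 added to FPKM in place of 1, these shares were 87.8% and 84.1%, and with 5 added, 96.8% and 59.95%. The size of this gap therefore depended on the constant added. Of the 5351 rows higher in buds, 1075 were at or below 0.5 FPKM in every leaf library, 471 of them at 0. A row at 0 in every leaf library has a leaf SD of 0, so it could not show the larger SD in leaf. An SD over 1 was found for 1485 rows in leaf and for 329 in bud. Plants, the number of libraries and the rounding of the columns differ between the tissues, and their part in this was not tested.

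Plants of the same labelled origin were available in both tissues for Pili (Cg_bud 2 and Cg_leaf 7) and for the Corfu crosses (Cg_bud 4 and Cg_leaf 6). Within Pili, 4681 rows were at least 2-fold higher in bud and 4738 lower, and within Corfu 4821 and 4861. In both origins 3904 rows were at least 2-fold higher and 3873 lower, and 90 were at least 2-fold changed in opposite ways. These are single libraries and carry no test. Deviations from the tissue mean were compared for all bud and leaf pairs. Across rows, Pearson's r between the deviations of a bud and a leaf library was 0.146 for the Corfu pair, place 3 of 40 pairs, and -0.018 for the Pili pair, place 24 of 40. The highest of the 40 was 0.195, between Cg_bud 3 from Metsovo and Cg_leaf 4 from Koutselio. The column names of this pair begin with the same number, as do those of the Pili pair, though the places given differ. Whether Cg_bud 3 and Cg_leaf 4 share an origin cannot be told here. Pairs share libraries and their deviations sum to 0 within a tissue, so these values are a description.

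Rows of both directions were found on every main scaffold. Of the tested rows, 29.4% (scaffold 4) to 34.0% (scaffold 3) were called higher in buds on both scales and 27.9% (scaffold 3) to 30.4% (scaffold 7) lower. Over all tested rows these shares were 31.1% and 29%. Rows in the top 25% of every bud library and the bottom 25% of every leaf library made up 2.06% of rows on scaffold 1 and 1.05% on scaffold 4. Of all tested rows they made up 1.56%, and 189 of these 268 rows entered through the 4 buds alone. The share of the reverse set was 0.345% (scaffold 7) to 0.558% (scaffold 2), against 0.430% of all tested rows.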

How the data were processed

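RNA was sequenced as Illumina paired-end libraries, per the labels' protocols. The authors deposited 1 table of FPKM with 18 library columns, with positions that follow the header's named build, CR v1 JGI. Bowtie, TopHat and Cufflinks are the tools in the submitters' processing notes; the scaling was not given in the sources used here. Columns were assigned by name, and 2496 rows share coordinates with another row. In leaf, values below 0.3 FPKM are spaced in steps, with 23.9% to 27.0% of rows in the modal ratio to Cg_leaf 7. Were read totals the sole scaling, relative depth ran from 0.493 (Cg_leaf 9) to 1.01 (Cg_leaf 1). Bud depth is unknown, so counting error is not given.

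Values were analysed as log2(FPKM + 1), where a fold understates the change of low genes, and as normal scores of ranks within a library. Both were fitted with limma 3.58.1 in R 4.3.3 (mean trend, Benjamini-Hochberg over 17229 rows, threshold 0.05) on 4 bud and 10 leaf libraries. Per-library measures used exact permutation in scipy 1.17.1. The limma p-values weigh each difference against the spread between these libraries, and the permutation p ranks it among the arrangements of library labels. Neither separates tissue from the processing of the columns. The fits were tested on simulated data with few rows changed and no difference in scale between tissues, unlike the data here. Members, lists and tests were chosen with earlier results of these data known. The naming rule took 2 rows each way by log2 difference and 2 by rank difference among 7524 eligible rows; IDs are printed for the first set, and the rest are given by position. The 18 gene lists matched none of the row labels and were not used. Alternatives varied pseudocount, filter, scaling, variance model, weights, libraries, rows and origin.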

Additional observations from a re-analysis of the deposited data

Results flagged for a closer look

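Of 48 sets of libraries examined, 5 contained 1 value set widely apart. The rate of about 1 in 20 given by chance holds for independent sets without many tied values. Some sets here are counts from the same columns or hold mostly 0, so the 5 are not compared with it. Cg_bud 1 had 6 rows at 0, where each further bud library had 1039 or more, and held 0.5 in 1023 rows against 57 or fewer. Cg_leaf 4 had a median rho with its own tissue of 0.904, below 0.928 in the next leaf library. Carubv10015686m stood at 0.0289 FPKM in Cg_leaf 5, with the other leaves listed at 0. The row on scaffold 2 from 1876221 to 1877658 reached 2304 FPKM in Cg_leaf 3, against 1147 in the next leaf library.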

How the results depend on the processing

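The 7 rows taken by the naming rule kept direction and call under every alternative that tested them. All 7 were picked for their large differences in these data. Carubv10002873m, Carubv10015686m and the row on scaffold 6 from 2348637 entered the main test through their bud values alone. For them a kept call is no support. When 1 bud library is omitted, asking for 1 FPKM in 4 libraries drops rows seen in buds alone, by its construction. The rows called then numbered 9531 to 12419 by level over all single omissions (4377 to 6788 higher and 5119 to 5686 lower in buds) and 10543 to 13175 by rank (5571 to 6604 and 4972 to 6571). Without Cg_leaf 4 the counts were 12419 and 13175, and without Cg_bud 1, with the filter asked in 3 libraries, 11220 and 12333. Rows in the top 25% of buds and bottom 25% of leaves numbered 102 to 278 over single omissions (102 to 124 where a bud library was omitted) and 271 to 353 with the filter asked in 3 libraries. The reverse set numbered 73 to 86, and the gap in the top 10 share was 13.8 to 15.5 percentage points (highest exact permutation p = 0.00699).

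Against a 2-fold threshold, limma's treat called 5788 rows, 3144 higher and 2644 lower in buds. After scaling to a common sum, 11339 were higher and 2405 lower. A filter of 5 FPKM gave 47.2% of calls higher in buds. Only the 4 libraries of Pili and Corfu, with origin as a term and 1 residual degree of freedom, gave 9609 calls by level and 10221 by rank. The filter asked in 3 libraries and the runs were chosen after seeing the data. No paired analysis was possible because the labels give no replicate numbers and place no bud and leaf library on 1 plant; the origin term matches places of origin, not plants. Depth limits the zeros: a row listed at 0 is not shown to be absent.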
